A study of Mus musculus with 12 samples.

Results

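The 9 genes described here form the core of bone morphogenetic protein (BMP) signalling in embryonic stem (ES) cells. They are the ligand gene Bmp4, the receptor gene Bmpr1a, the receptor-regulated Smad1 and Smad5, the inhibitory Smad6 and Smad7, and the target genes Id1, Id2 and Id3. Each was taken by its symbol from a table of 54446 gene identifiers per library. The values are TPM (transcript abundance corrected for gene length and scaled to one total in every library).

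The 12 RNA-seq libraries fell into 6 groups of 2, from 2 mouse ES cell lines sampled at 0, 72 and 144 h in INK128, a catalytic inhibitor of the growth-controlling kinase mTOR (mTORi). KH is the wild-type line, and DNMT3ABKO lacks the de novo DNA methyltransferase genes Dnmt3a and Dnmt3b. The labels put E14 in front of the name of either line, whereas the methods list a wild-type KH2 line beside the Dnmt3a/b knockout and do not name the parent of the latter. The design text of the series speaks of a TET1/2 double knockout, and the sample labels, which give DNMT3ABKO, were followed here. The methods have either line grown on mitotically arrested feeder fibroblasts, and cells were sorted before RNA was extracted. Each genotype is represented by 1 line. No untreated culture was sampled at 72 or 144 h, so that the effect of INK128 and that of time in culture cannot be told apart. The study states that its experiments were repeated independently, but nothing in the labels ties these libraries to separate cultures. The p-values set a difference against the spread between libraries of a group, pooled over the 6 groups. This spread may in part be technical.

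BMP ligands bind paired type I and type II serine/threonine kinase receptors, which phosphorylate SMAD1 and SMAD5. These join SMAD4, enter the nucleus and activate target genes. The best-known targets in ES cells are the Id genes, whose products lack a DNA-binding domain and hold E proteins, their basic helix-loop-helix partners, away from DNA. Together with LIF, BMP4 can sustain the self-renewal of mouse ES cells through ID proteins. SMAD6 and SMAD7 are themselves induced by the pathway and restrain it.

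The promoter windows of 4 members are shown because these genes carry the patterns described below: Bmp4 peaked at 72 h, Smad6 and Id3 fell, and Id2 differed between the lines. Windows of 250 bases upstream and 50 downstream of the transcript start were taken from RefSeq (GRCm38.p6) for 7 of the 9 members, all but Id1 and Smad7. They were searched on both strands for the palindromic SMAD box GTCTAGAC, the GC-rich SMAD1 and SMAD5 element GGCGCC, and the E-box CACGTG bound by TFE3 and MYC. Capitals mark these matches, which are letters in a window and not measured sites.
Bmp4 (chr14:46390620-46390919, minus strand): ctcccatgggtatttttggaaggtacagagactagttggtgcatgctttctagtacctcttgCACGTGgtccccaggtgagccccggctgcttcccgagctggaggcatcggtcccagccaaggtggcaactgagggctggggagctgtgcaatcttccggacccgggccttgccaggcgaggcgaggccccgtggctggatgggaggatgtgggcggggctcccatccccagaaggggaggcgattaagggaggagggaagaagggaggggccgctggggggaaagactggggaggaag
Smad6 (chr9:64022010-64022309, minus strand): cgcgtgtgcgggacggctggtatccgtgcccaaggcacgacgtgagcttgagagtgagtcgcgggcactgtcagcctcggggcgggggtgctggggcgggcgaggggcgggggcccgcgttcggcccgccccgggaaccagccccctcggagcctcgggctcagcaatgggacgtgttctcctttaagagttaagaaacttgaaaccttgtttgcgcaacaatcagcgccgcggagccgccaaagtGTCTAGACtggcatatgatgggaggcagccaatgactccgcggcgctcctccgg
Id2 (chr12:25096043-25096342, minus strand): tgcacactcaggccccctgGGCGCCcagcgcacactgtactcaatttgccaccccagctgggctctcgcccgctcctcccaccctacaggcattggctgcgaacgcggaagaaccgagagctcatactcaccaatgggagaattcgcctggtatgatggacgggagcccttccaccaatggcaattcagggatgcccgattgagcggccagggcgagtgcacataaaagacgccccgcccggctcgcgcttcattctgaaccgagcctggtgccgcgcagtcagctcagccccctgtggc
Id3 (chr4:136143572-136143871, plus strand): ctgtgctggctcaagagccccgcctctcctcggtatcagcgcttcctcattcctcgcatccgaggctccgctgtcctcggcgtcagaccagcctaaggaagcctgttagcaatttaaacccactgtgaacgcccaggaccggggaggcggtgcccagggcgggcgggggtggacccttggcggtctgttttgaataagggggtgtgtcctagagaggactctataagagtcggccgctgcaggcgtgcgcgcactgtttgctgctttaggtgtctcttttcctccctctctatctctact
The Smad6 window held GTCTAGAC from position -4 relative to the transcript start, a word found in 0.213% of 32851 mouse windows of this length. The Id2 window held GGCGCC from position -231. This word was also in windows of Bmpr1a and Smad5, and in 11.9% of all windows. The E-box in the Bmp4 window began at position -188, and 7.15% of all windows hold one. The Id3 and Smad1 windows held none of the 3 words. No match says only that these letters are absent from the window.

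All 9 members are protein-coding genes, and their spans in the files (mm10) matched GENCODE M21. Bmp4 lies on chromosome 14 at 46383520-46390669 (minus strand), and Bmpr1a on the same chromosome at 34410734-34503341 (minus strand). Smad1 lies on chromosome 8 at 79338395-79399518 (minus strand), Smad5 on chromosome 13 at 56703010-56742377 (plus strand), Smad6 on chromosome 9 at 63953076-64022059 (minus strand) and Smad7 on chromosome 18 at 75367529-75395935 (plus strand). Id1 lies on chromosome 2 at 152736251-152737410 (plus strand), Id2 on chromosome 12 at 25093799-25097140 (minus strand) and Id3 on chromosome 4 at 136143497-136145755 (plus strand). Bmp4 and Bmpr1a overlap antisense genes, and Smad5 overlaps small RNA genes of its own strand. None of these overlapping genes exceeded 2.14 TPM in any library.

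Labels and libraries were checked first. Dnmt3b averaged 145 to 257 TPM in the KH groups and 12.9 to 26.9 TPM in the DNMT3ABKO groups, and Dnmt3a 56.2 to 110 TPM against 9.45 to 19.4 TPM. All 10 ES cell markers exceeded 1 TPM in every group, and their sum rose from 4056-4306 TPM in the 0 h libraries of both lines to 5492-6214 TPM in the treated ones. Dppa5a was the largest part of this sum. It averaged 1911 TPM at 0 h and 3186 TPM at 144 h in KH, and 1984 and 3114 TPM in DNMT3ABKO. The 20 fibroblast markers, in contrast, summed to 1521-1637 TPM (KH) and 1785-1810 TPM (DNMT3ABKO) at 0 h, to 435-445 and 338-380 TPM at 72 h, and to 84.9-88.1 and 89.0-92.5 TPM at 144 h. TPM carries no depth. The libraries of the DNMT3ABKO 0 h group differed from each other more than those of any other group, with a residual SD of 0.27 on the log2 scale against 0.13 to 0.18. Changes are differences in log2(TPM + 1), which understate those of low genes, and were tested with limma over 15727 genes, with Benjamini-Hochberg adjustment over all genes in each comparison. Median-ratio rescaling moved the median gene of the DNMT3ABKO 72 h response from 0.12 to 0.01 on the log2 scale. It changed the genes called higher and lower from 5397 and 3403 to 4643 and 4664 in this response, from 4447 and 3073 to 3930 and 4321 in the KH 72 h response, and from 1727 and 2439 to 2575 and 2465 between the lines at 144 h. From 72 to 144 h the split moved from 1139 and 2458 to 2093 and 2443 in KH, and from 1385 and 2904 to 2559 and 2791 in DNMT3ABKO.

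The question of the time course is how BMP pathway genes behave while mTORi takes ES cells into a paused state. With normalization to added ERCC standards, the study reports a global fall of the transcriptome under mTORi, also in Dnmt3a/b knockout cells. TPM leaves such a fall out, so that a rise or fall here is a change in a gene's share of the RNA. At 72 h Bmp4, Smad1 and Smad7 rose in both lines, while Id1 and Id3 fell. At 144 h Bmp4, Smad1 and Smad7 had fallen back towards their starting levels and Id1 had risen again. Id3 was lower still at 144 h, and Smad6 had joined it. Bmpr1a passed no test against 0 h. At 72 h 6 members changed in KH (3 higher, 3 lower), where 47.8% of all genes tested did (28.3% higher, 19.5% lower). In DNMT3ABKO 6 changed at 72 h (4 higher, 2 lower), against 56% of all genes (34.3% higher, 21.6% lower). At 144 h 3 changed in KH, all lower, against 51.3% of all genes (27.4% higher, 23.9% lower), and 5 did without either DNMT3ABKO 0 h replicate 1 or DNMT3ABKO 0 h replicate 2. The DNMT3ABKO count at 144 h was 4 (1 higher, 3 lower), against 57.6% of all genes (31.4% higher, 26.2% lower). Between 72 and 144 h 7 members changed in KH (2 higher, 5 lower), where 22.9% of all genes did (7.24% higher, 15.6% lower), and 7 in DNMT3ABKO (1 higher, 6 lower), against 27.3% (8.81% higher, 18.5% lower). The median change of the members from 72 to 144 h was -0.54 in KH and -0.38 in DNMT3ABKO on the log2 scale, beside -0.04 and -0.06 over all genes tested. With a log2 change of at least 1 also required, 2 members passed in KH at 72 h (Bmp4 and Smad7), where 6.35% of all genes did, and 1 at 144 h (Id3), against 9.95%. In DNMT3ABKO 2 passed at 72 h (Bmp4 and Id3), against 11.2% of all genes, and 2 at 144 h (Id3 and Smad6), against 14.8%. From 72 to 144 h 2 passed in KH (Bmp4 and Id3), against 2.98%, and 2 in DNMT3ABKO (Bmp4 and Smad6), against 4.57%.

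**Figure D1:**
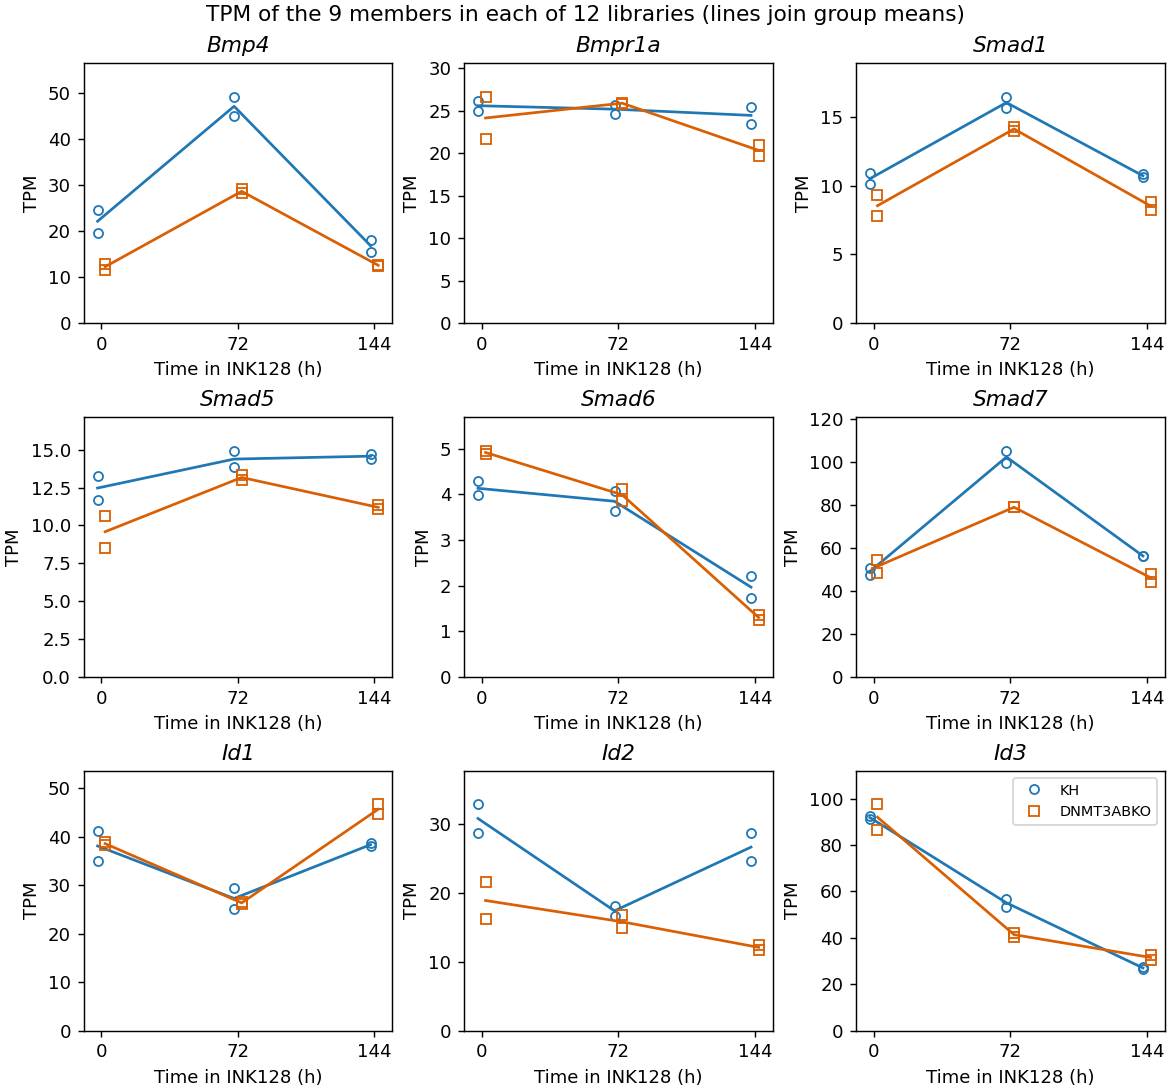
TPM of each member (linear axes from 0) against hours in INK128, with 1 point per library (KH circles, DNMT3ABKO squares) and lines joining the group means. Bmp4, Smad1 and Smad7 peak at 72 h in both lines, with Smad7 at 102 TPM in KH and 78.9 TPM in DNMT3ABKO, whereas Id3 declines from 91.8 to 27.0 TPM in KH and from 92.0 to 31.6 TPM in DNMT3ABKO.

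Bmp4 encodes the BMP ligand that is used to maintain ES cells in culture. In KH its level was 19.6 and 24.7 TPM at 0 h, 49.1 and 45.0 TPM at 72 h, and 15.5 and 18.1 TPM at 144 h. In DNMT3ABKO the libraries held 11.7 and 12.9 TPM, then 28.2 and 29.0 TPM, then 12.6 and 12.5 TPM. In both lines the 72 h libraries were thus above all others of the line without overlap. Here and below, overlap of libraries is a description and not a test, with 2 libraries a group. The log2 change at 72 h was 1.06 in KH (SE 0.11, adjusted p = 6.47e-05) and 1.16 in DNMT3ABKO (SE 0.11, adjusted p = 2.15e-05). From 72 to 144 h Bmp4 fell by 1.43 in KH (adjusted p = 1.98e-05) and by 1.13 in DNMT3ABKO (adjusted p = 6.22e-05). Relative to 0 h, the KH libraries at 144 h were lower by a log2 change of -0.37 (adjusted p = 0.0198). This last call was lost without KH 0 h replicate 2 (-0.21, adjusted p = 0.159) or KH 144 h replicate 1 (-0.27, adjusted p = 0.151), with no filter on low values, and with only the 2 groups in the fit.

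Bmpr1a encodes a type I receptor for BMP4. It was the steadiest member, at 25.0 and 26.2 TPM in KH at 0 h, 24.7 and 25.7 TPM at 72 h, and 25.5 and 23.4 TPM at 144 h. In DNMT3ABKO it held 21.7 and 26.6 TPM, 25.8 and 26.0 TPM, and 19.7 and 21.0 TPM at these times. Only the DNMT3ABKO 144 h libraries lay below all others. In KH the log2 change had 95% intervals of -0.24 to 0.19 (72 h) and -0.28 to 0.15 (144 h). The fall from 72 to 144 h in DNMT3ABKO (-0.33, adjusted p = 0.0265) lost its call without any 1 of the 4 libraries of these groups, with log2 changes from -0.29 without DNMT3ABKO 144 h replicate 1 to -0.38 without DNMT3ABKO 144 h replicate 2.

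Of the genes for the signal-transducing SMADs, Smad1 moved like Bmp4. Smad1 measured 10.1 and 10.9 TPM in KH at 0 h, 16.4 and 15.6 TPM at 72 h, and 10.6 and 10.8 TPM at 144 h. The DNMT3ABKO libraries had 7.76 and 9.31 TPM, then 14.2 and 13.98 TPM, then 8.78 and 8.26 TPM. The 72 h libraries were again the highest of each line, whereas those of 0 and 144 h overlapped. The rise at 72 h was 0.57 in KH (SE 0.09, adjusted p = 0.000857) and 0.67 in DNMT3ABKO (SE 0.09, adjusted p = 0.000212). At this time the median change of the 10 ES cell markers was 0.52 in KH and 0.39 in DNMT3ABKO. The part of the cell mixture in the rise was not tested. The fall of Smad1 from 72 to 144 h passed as well in KH (-0.54, adjusted p = 0.00281) and in DNMT3ABKO (-0.67, adjusted p = 0.000544). Smad5, whose product acts beside SMAD1, measured 11.7 and 13.3 TPM in KH at 0 h, 13.8 and 14.9 TPM at 72 h, and 14.4 and 14.8 TPM at 144 h. None of these KH differences passed. In DNMT3ABKO it went from 8.52 and 10.7 TPM to 13.0 and 13.4 TPM at 72 h and to 11.1 and 11.3 TPM at 144 h. Its rise at 72 h was 0.43 (adjusted p = 0.00652), a call that was lost when only these 2 groups were fitted (adjusted p = 0.064). The ratio of Smad1 to Smad5 went from 0.843 ± 0.032 to 1.12 ± 0.10 and back to 0.735 ± 0.002 in KH (SD, n = 2 libraries), and from 0.892 ± 0.026 to 1.07 ± 0.04 and 0.761 ± 0.046 in DNMT3ABKO.

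The inhibitory SMAD genes parted from each other. Smad7 encodes an inhibitor that occupies type I receptors of the BMP and TGF-beta branches, and it was among the most abundant members. In KH it stood at 47.5 and 50.6 TPM at 0 h, 105 and 99.3 TPM at 72 h, and 56.0 and 56.4 TPM at 144 h. In DNMT3ABKO the values were 48.4 and 54.4 TPM, 78.8 and 78.9 TPM, and 48.0 and 44.3 TPM. The 72 h libraries were highest in both lines, with those of KH above those of DNMT3ABKO. Smad7 rose at 72 h by 1.05 in KH (SE 0.08, adjusted p = 5.32e-06) and by 0.61 in DNMT3ABKO (SE 0.08, adjusted p = 9.1e-05), and it fell from 72 to 144 h by 0.85 (adjusted p = 3.89e-05) and 0.76 (adjusted p = 5.21e-05).

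Smad6, whose product preferentially restrains BMP receptor signalling, was the least abundant member. Its level in KH was 3.99 and 4.28 TPM at 0 h, 4.07 and 3.63 TPM at 72 h, and 1.73 and 2.21 TPM at 144 h. In DNMT3ABKO it was 4.88 and 4.96 TPM, 3.86 and 4.12 TPM, and 1.35 and 1.26 TPM. The 144 h libraries were lowest in both lines. The change at 72 h did not pass in either line, and at 144 h Smad6 fell by 0.79 in KH (SE 0.11, adjusted p = 0.000199) and by 1.36 in DNMT3ABKO (SE 0.11, adjusted p = 3.28e-06). The ratio of Smad7 to Smad6 increased from 11.9 ± 0.1 at 0 h to 26.6 ± 1.1 and 29.0 ± 4.8 in KH (SD, n = 2), and from 10.4 ± 0.7 to 19.8 ± 0.9 and 35.4 ± 0.3 in DNMT3ABKO.

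**Figure D2:**
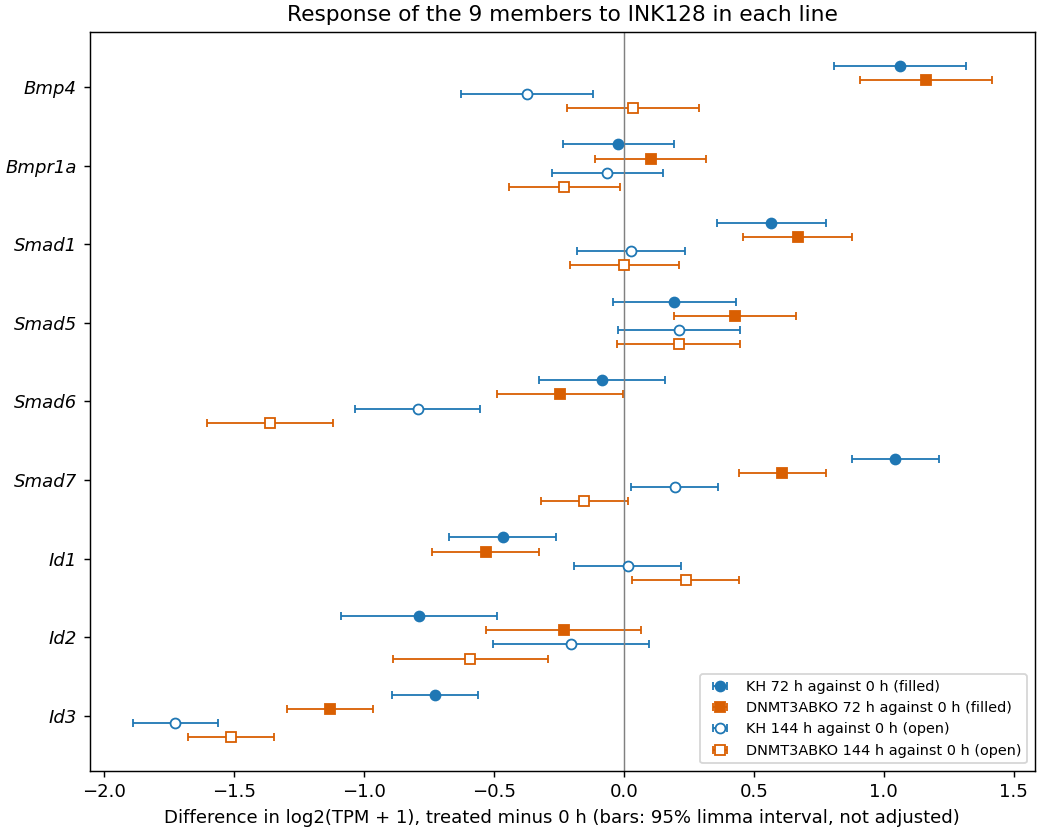
Difference in log2(TPM + 1), treated minus 0 h, for each member in KH (circles) and DNMT3ABKO (squares) at 72 h (filled) and 144 h (open), with 95% limma intervals that are not adjusted for the number of genes. The filled symbols of Bmp4, Smad1 and Smad7 lie to the right of 0, those of Id1 and Id3 to the left, and at 144 h Id3 and Smad6 lie to the left in both lines.

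The 3 Id genes followed different courses, although all encode inhibitors of E proteins. Id1 dipped at 72 h and recovered. In KH its level was 35.0 and 41.2 TPM at 0 h, 29.4 and 25.2 TPM at 72 h, and 38.0 and 38.7 TPM at 144 h. In DNMT3ABKO it was 38.9 and 38.2 TPM, 26.6 and 26.1 TPM, and 46.7 and 44.7 TPM. Libraries of 72 h were below all others. The log2 change at 72 h was -0.47 in KH (SE 0.09, adjusted p = 0.00244) and -0.53 in DNMT3ABKO (SE 0.09, adjusted p = 0.000837), and from 72 to 144 h Id1 rose by 0.48 (adjusted p = 0.00486) and 0.77 (adjusted p = 0.0002). Without KH 72 h replicate 2 the KH rise was 0.37 (adjusted p = 0.0519). The excess over 0 h in DNMT3ABKO at 144 h (0.24, adjusted p = 0.0493) lost its call under all 5 other settings of the fit and without any 1 of 8 libraries, those of KH 144 h and of the 3 DNMT3ABKO groups, with values of 0.21 to 0.27.

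Id2 reached its lowest level at 72 h in KH and at 144 h in DNMT3ABKO. Its KH level was 28.7 and 32.8 TPM at 0 h, 16.6 and 18.1 TPM at 72 h, and 24.6 and 28.6 TPM at 144 h. The DNMT3ABKO libraries held 16.2 and 21.5 TPM, 16.7 and 14.9 TPM, and 11.7 and 12.4 TPM. The libraries of these groups were below all others of their line, while the 0 and 72 h libraries of DNMT3ABKO overlapped. In KH Id2 fell by 0.79 at 72 h (SE 0.13, adjusted p = 0.00103) and rose by 0.58 from 72 to 144 h (adjusted p = 0.0117), a rise whose call was lost without KH 72 h replicate 1 (0.52, adjusted p = 0.089) or KH 144 h replicate 2 (0.48, adjusted p = 0.0933). In DNMT3ABKO only the fall at 144 h against 0 h passed (-0.59, SE 0.13, adjusted p = 0.00372). The difference between the lines in the response did not pass at 72 h (0.56, 95% interval 0.13 to 0.98, adjusted p = 0.145) or at 144 h (-0.39, 95% interval -0.81 to 0.04, adjusted p = 0.259).

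Id3 was the most abundant Id gene at 0 h and fell at both times. In KH it measured 91.1 and 92.5 TPM at 0 h, 56.8 and 53.4 TPM at 72 h, and 26.7 and 27.4 TPM at 144 h. In DNMT3ABKO it measured 97.4 and 86.5 TPM, 42.2 and 40.6 TPM, and 32.5 and 30.6 TPM. The 3 times did not overlap in either line. Id3 fell at 72 h by 0.73 in KH (SE 0.07, adjusted p = 4.55e-05) and by 1.13 in DNMT3ABKO (SE 0.07, adjusted p = 1.62e-06), and at 144 h by 1.73 (adjusted p = 8.56e-08) and 1.51 (adjusted p = 9.07e-08). Its further fall from 72 to 144 h was -1.0 in KH (adjusted p = 1.24e-05) and -0.38 in DNMT3ABKO (adjusted p = 0.00366).

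Since TPM is corrected for length, the Id genes can be summed. Together they made up 161 ± 8 TPM in KH at 0 h, 99.7 ± 4.3 TPM at 72 h and 92.0 ± 3.8 TPM at 144 h (SD, n = 2). In DNMT3ABKO the sums were 149 ± 4, 83.5 ± 2.8 and 89.3 ± 2.2 TPM. The sums at 72 and 144 h thus lay close to each other, while the makeup shifted. Id3 supplied 58.9% and 55.6% of it in the KH libraries at 0 h and 29.9% and 28.9% at 144 h, and 63.9% and 59.1% against 35.8% and 34.9% in DNMT3ABKO. The ratio of Id3 to Id1 fell from 2.42 ± 0.26 to 2.03 ± 0.13 and 0.705 ± 0.004 in KH, and from 2.38 ± 0.17 to 1.57 ± 0.03 and 0.691 ± 0.008 in DNMT3ABKO, so that Id1 had replaced Id3 as the most abundant of the 3 in every 144 h library.

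**Figure D3:**
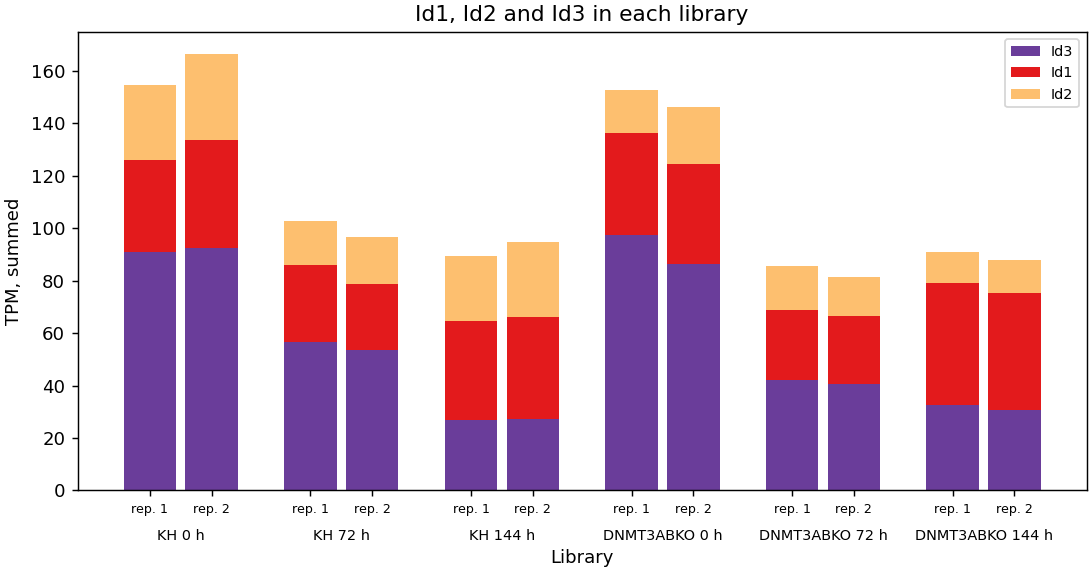
TPM of Id3 (bottom), Id1 (middle) and Id2 (top) stacked for each of the 12 libraries, from 0. The bars drop from 146-166 TPM at 0 h to 81.5-103 TPM in the treated libraries, and at 144 h the Id1 segment is longer than the Id3 segment.

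Id3 and Smad6 have to be read beside the feeder fibroblasts named in the methods. In bulk RNA, fewer cells of a type and less RNA per cell cannot be told apart. All 18 fibroblast markers tested fell in each of the 4 responses. Relative to 0 h, their sum was at 27.6-28.2% in the KH libraries and 18.8-21.2% in the DNMT3ABKO libraries at 72 h, and at means of 5.48% and 5.05% at 144 h, with Lum and Fap under 1 TPM in the treated libraries and no marker at 0 in both libraries of a group. Id3 was at 60.0% and 45.0% of its 0 h level at 72 h, and at 29.4% and 34.3% at 144 h. Smad6 was at 93.1% and 81.2%, and then at 47.6% and 26.5%. Over the 12 libraries, which share lines, times and culture, the log2 level of Id3 followed that of the fibroblast sum with Pearson's r = 0.982 and Smad6 with r = 0.894. For the other members r was 0.445 (Bmpr1a), -0.419 (Smad5), 0.345 (Id2), -0.179 (Id1), 0.115 (Bmp4), -0.011 (Smad1) and 0.0007 (Smad7). The sum of 10 macrophage markers fell too, from 254-274 TPM in KH and 219-239 TPM in DNMT3ABKO at 0 h to 153-157 and 92.9-97.1 TPM at 72 h and to 5.46-6.14 and 14.6-14.8 TPM at 144 h, where Fcgr1 was at 0 in both lines and C1qb in KH. The 5 endothelial markers summed to 23.7-32.9 TPM throughout. Pecam1 supplied most of this sum, with group means of 17.5 to 26.8 TPM, and Cdh5 and Emcn were under 1 TPM in every group. The part of the other cell types in the changes of Id3 and Smad6 was not tested. The 10 ES cell markers had median log2 changes of 0.52 in KH and 0.39 in DNMT3ABKO at 72 h, and of 0.46 and 0.51 at 144 h. In KH 9 of them passed as higher at 72 h and 8 at 144 h, and none passed as lower. In DNMT3ABKO 8 passed as higher at 72 h, while Nanog fell (-0.49). There 7 passed as higher at 144 h, while Utf1 fell (-0.30). Rises of members and of other pathway genes have to be read beside these marker changes. The part of the cell mixture in such rises was not tested.

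**Figure D4:**
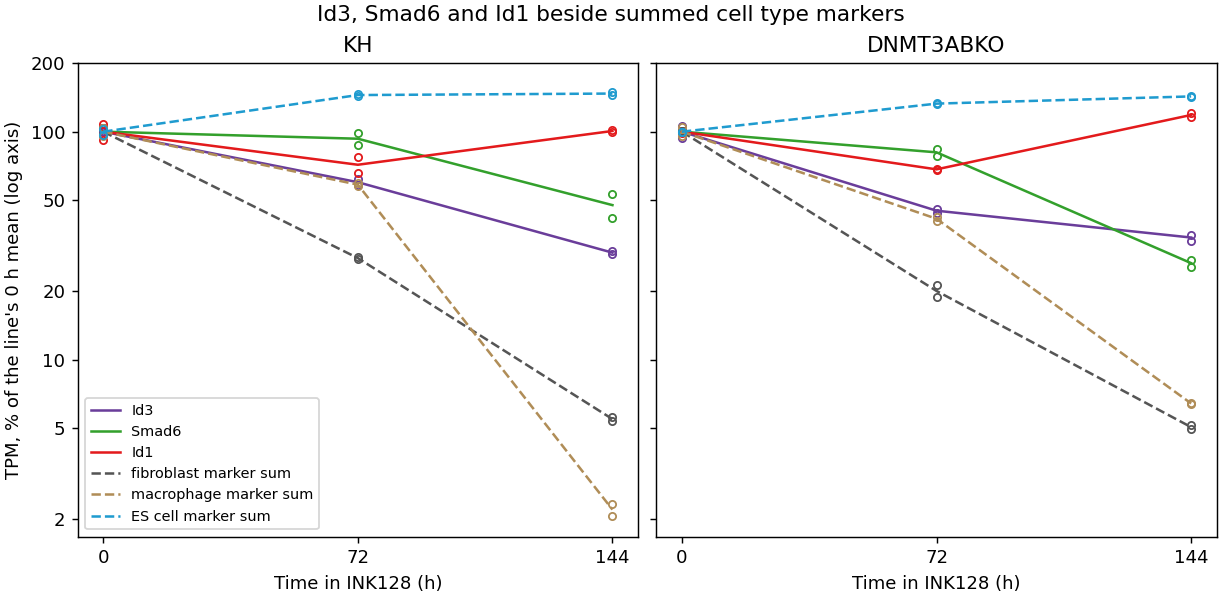
TPM of Id3, Smad6 and Id1 (solid lines) and summed TPM of 20 fibroblast, 10 macrophage and 10 ES cell markers (dashed lines), each as percent of the line's 0 h mean on a log axis, against hours in INK128; circles are libraries and lines join means. At 144 h the fibroblast sum is at about 5% of its start in either line (5.48% and 5.05%), Id3 at 29.4% and 34.3%, and Id1 at 101% and 118%.

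The comparison of the lines sets DNMT3ABKO beside KH. With 1 line per genotype, the loss of Dnmt3a and Dnmt3b cannot be told apart from other differences between the lines. Every member that passed was lower in DNMT3ABKO. At 0 h 2 members passed, Bmp4 and Id2, where 9.06% of all genes tested did (4.92% higher, 4.14% lower). This count was 1 without KH 0 h replicate 2, 4 without DNMT3ABKO 0 h replicate 2, and 0 when only the 0 h groups were fitted. At 72 h 3 passed, Bmp4, Smad7 and Id3, against 19.3% of all genes (9.26% higher, 10% lower). At 144 h 6 passed, Id2, Bmp4, Smad1, Smad5, Smad6 and Smad7, against 26.5% of all genes (15.5% lower, 11% higher). The median difference of the members was -0.09, -0.13 and -0.30 on the log2 scale at the 3 times, beside -0.05, -0.04 and -0.04 over all genes. With a log2 difference of at least 1 also required, 0 members passed at 0 h, against 1.58% of all genes, 0 at 72 h, against 3.29%, and 1 at 144 h (Id2), against 3.82%.

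Bmp4 was lower in DNMT3ABKO at each time, by 0.80 at 0 h (SE 0.11, adjusted p = 0.00191), by 0.70 at 72 h (adjusted p = 0.0022) and by 0.39 at 144 h (adjusted p = 0.0306), and its libraries of the lines did not overlap at any time. The 0 h call was lost when only the 0 h groups were fitted (adjusted p = 0.0747). Id2 was lower by 0.69 at 0 h (adjusted p = 0.0113) and by 1.07 at 144 h (adjusted p = 0.00029), with libraries apart at these times and overlapping at 72 h. Its 144 h difference kept its call under each of the 5 other settings and without each library, and its 0 h call was lost without KH 0 h replicate 2 (-0.59, adjusted p = 0.0934) and with only the 0 h groups (adjusted p = 0.146). At 72 h Id3 was lower by 0.40 (adjusted p = 0.00417) and Smad7 by 0.37 (adjusted p = 0.00736). The Smad7 call was lost without KH 72 h replicate 1 (-0.33, adjusted p = 0.0743), DNMT3ABKO 72 h replicate 1 (-0.37, adjusted p = 0.0525) or DNMT3ABKO 72 h replicate 2 (-0.37, adjusted p = 0.0507). The fibroblast marker sum was also lower in DNMT3ABKO at 72 h (338-380 TPM against 435-445 TPM), and its part in the Id3 difference was not tested.

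The remaining differences at 144 h were small. Smad6 was lower in DNMT3ABKO by 0.36 (adjusted p = 0.0335), Smad5 by 0.35 (adjusted p = 0.0339), Smad1 by 0.30 (adjusted p = 0.0399) and Smad7 by 0.28 (adjusted p = 0.0204). The libraries of the lines did not overlap for any of these genes, which were taken because they passed, so that this adds no support. All 4 calls, and that of Bmp4, rested on single libraries, the values being -0.50 to -0.22 over the 12 fits that each left 1 out. Smad1 and Smad5 lost theirs without any 1 of the 8 libraries of 72 and 144 h. In a fit blocked on the labelled replicate number, the calls of Smad1 (adjusted p = 0.0767) and Smad6 (adjusted p = 0.0656) were lost. Without KH 144 h replicate 2 or DNMT3ABKO 144 h replicate 2 only 1 member passed at this time. There were 2 members without DNMT3ABKO 144 h replicate 1, and 3 without KH 144 h replicate 1, DNMT3ABKO 72 h replicate 1 or DNMT3ABKO 72 h replicate 2. Bmpr1a and Id1 did not pass between the lines at any time.

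Whether the response itself differed between the lines was tested by the interaction of line and time. At 72 h 1 member passed, where 5.23% of all genes did (3.38% higher, 1.86% lower): the rise of Smad7 was smaller in DNMT3ABKO by 0.44 on the log2 scale (adjusted p = 0.0452). At 144 h 1 passed, against 8.59% of all genes (4.89% higher, 3.7% lower): the fall of Smad6 was larger in DNMT3ABKO (-0.57, adjusted p = 0.0491). Either call was lost without any 1 of 10 libraries. The call held only without either DNMT3ABKO 0 h library for Smad7, and without KH 144 h replicate 1 or DNMT3ABKO 0 h replicate 2 for Smad6. Over the 12 fits that each left 1 library out, the values ran from -0.52 to -0.35 for Smad7 and from -0.68 to -0.45 for Smad6. With the replicate block both were lost as well (adjusted p = 0.108 for Smad7 and 0.0985 for Smad6). No member reached a difference in response of at least 1, which 1.81% of all genes did at 72 h and 3.01% at 144 h. The larger 72 h fall of Id3 in DNMT3ABKO did not pass (-0.40, 95% interval -0.64 to -0.17, adjusted p = 0.0558). For Bmp4 the difference in the 72 h response was 0.10 (95% interval -0.26 to 0.46) and for Smad1 0.10 (-0.19 to 0.40), and neither passed.

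The order of the 6 groups, which describes the same values and is not a test, shows the same patterns. For Bmp4, Smad1 and Smad7 the order began with KH 72 h and DNMT3ABKO 72 h, without overlap, and below these only DNMT3ABKO 0 h and 144 h overlapped for Bmp4. For Id3 the 0 h groups overlapped at the top, and all later neighbours were apart. For Smad6 the order ran from DNMT3ABKO 0 h (4.92 TPM), over KH 0 h, DNMT3ABKO 72 h and KH 72 h, which overlapped as neighbours, to KH 144 h (1.97 TPM) and DNMT3ABKO 144 h (1.30 TPM). Id1 was highest in DNMT3ABKO 144 h (45.7 TPM), and the next 3 groups overlapped as neighbours at 38.1 to 38.6 TPM. Id2 was highest in KH 0 h (30.7 TPM) and lowest in DNMT3ABKO 144 h (12.1 TPM), with DNMT3ABKO 0 h, KH 72 h and DNMT3ABKO 72 h overlapping as neighbours. For Smad5 the highest groups, KH 144 h and KH 72 h, overlapped, and DNMT3ABKO 0 h (9.59 TPM) was apart at the bottom. For Bmpr1a all but DNMT3ABKO 144 h overlapped as neighbours.

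As a description over the 12 libraries, which share lines and times, the log2 levels of Bmp4 and Smad1 correlated with Pearson's r = 0.961, those of Smad1 and Smad7 with 0.945 and those of Bmp4 and Smad7 with 0.904. Id1 ran opposite to them, with r = -0.883 to Smad7, -0.875 to Smad1 and -0.821 to Bmp4. Id1 and Id3 had r = -0.06 over all libraries, although both fell at 72 h in both lines. Among 9596 genes of at least 5 TPM on average (9597 for Smad6), the gene most alike was Ngrn for Bmp4 (r = 0.982), Etv6 for Bmpr1a (0.937), Chrna9 for Smad1 (0.979), Lrrc1 for Smad5 (0.983), Pmepa1 for Smad6 (0.979) and Brat1 for Smad7 (0.981). For Id1 it was Dmpk (0.977) and for Id2 Med8 (0.968). The 3 genes most like Id3 were Adam8, Lgals3bp and Ifi27, each with r of 0.993 to 0.994. The next genes were Chrna9 and Cog8 for Bmp4, Senp5 and Tada2a for Bmpr1a, Ttc8 and Golga5 for Smad1, Gtf2h3 and Nfx1 for Smad5, Pid1 and Pold4 for Smad6, Tmem8 and Ccdc191 for Smad7, Ctdp1 and Hspa1b for Id1, and E2f7 and Oxsr1 for Id2.

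The rest of the pathway was described by a list of 71 further genes, of which 50 reached the 1 TPM mean needed for testing. In KH 26 of the 50 passed at 72 h (12 higher, 14 lower) and 32 at 144 h (13 higher, 19 lower). In DNMT3ABKO 34 passed at 72 h (18 higher, 16 lower) and 37 at 144 h (14 higher, 23 lower). The share of all genes that passed was 47.8%, 51.3%, 56% and 57.6% in these responses. The difference between the lines in the response passed for 3 of the 50 at 72 h (1 higher, 2 lower), against 5.23% of all genes. At 144 h it passed for 3, all lower, against 8.59%. None of the 215 calls of these genes over all comparisons changed sign after median-ratio rescaling, and 2 were lost. The genes named are those that passed with the largest changes in their role, beside a few named in any case.

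Of 13 further ligand genes, only Gdf3 and Bmp8a were tested. Gdf3, whose product modulates BMP signalling in ES cells, was abundant and rose from 63.6 to 95.9 TPM in KH at 72 h (0.59) and from 73.0 to 94.7 TPM in DNMT3ABKO (0.38). The DNMT3ABKO call of Gdf3 was lost in 3 of 17 alternative fits. Bmp8a rose from 1.09 to 2.10 TPM and from 1.78 to 4.20 TPM. Among 5 tested receptors, Acvrl1, which encodes the type I receptor ALK1 known from endothelium, fell at 144 h by 2.12 in KH and by 2.24 in DNMT3ABKO. Its levels at 144 h were only 0.526 and 0.412 TPM. Acvr1, a type I BMP receptor gene, fell by 0.40 and 0.97, and Acvr2b, a type II receptor gene, rose by 0.64 and 0.44. Bmpr2, the type II BMP receptor gene, fell by 0.47 in DNMT3ABKO at 144 h, to 5.45 TPM, and its change in KH, from 7.54 to 5.75 TPM, did not pass. The DNMT3ABKO call of Bmpr2 was lost in 3 of 17 alternative fits. Of 5 co-receptors, Tgfbr3 (betaglycan) and Eng (endoglin) fell in all 4 responses. At 144 h Tgfbr3 fell by 1.68 in each line, to 0.910 TPM in KH and 0.829 TPM in DNMT3ABKO, and Eng by 0.43 in KH and 0.68 in DNMT3ABKO. Rgma, a BMP co-receptor gene, rose at 72 h (0.49) and fell at 144 h (-0.63) in DNMT3ABKO, and did not pass in KH. The difference between the lines in the response passed for Rgma at 144 h, a call lost in 2 of 17 alternative fits. It also passed for Eng at 72 h, where it was lost in 11. The fibroblast marker sum fell to 5.48% and 5.05% of its 0 h mean in the same 144 h libraries of KH and DNMT3ABKO, and the macrophage sum to 2.2% and 6.42%. Their part in these falls was not tested.

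Smad4, the shared partner of receptor-regulated SMADs, went from 34.7 to 42.3 and 44.5 TPM in DNMT3ABKO, rises of 0.29 and 0.36 that passed, and from 36.0 to 41.7 and 42.0 TPM in KH, which did not pass. The 72 h call in DNMT3ABKO was lost in 11 of 17 alternative fits and the 144 h call in 3. Smad9 averaged at most 0.24 TPM in any group and was not tested.

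At 144 h the extracellular antagonists and modulators had the largest median change in size of all roles tested, in both lines. At 144 h 9 of 11 tested passed in KH (1 higher, 8 lower), against 51.3% of all genes, and 11 of 11 in DNMT3ABKO (2 higher, 9 lower), against 57.6%. The median change over these 11 was -1.06 in KH and -1.14 in DNMT3ABKO, beside 0.05 over all genes in each line. Fst, the follistatin gene, fell from 31.9 to 4.59 TPM in KH (-2.56) and from 26.6 to 3.58 TPM in DNMT3ABKO (-2.59). Bmp1 encodes a protease that cleaves procollagen and the BMP antagonist chordin, and fell from 33.2 to 4.86 TPM (-2.54) and from 33.7 to 4.47 TPM (-2.67). The genes that rose at 144 h were Twsg1 in both lines and Chrd in DNMT3ABKO, where the call of Chrd was lost in 3 of 17 alternative fits. The part of the falling fibroblast (5.48% and 5.05% of 0 h) and macrophage (2.2% and 6.42%) marker sums in these changes was not tested.

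Among 13 intracellular regulators, Zfp423, which encodes a zinc finger cofactor of BMP-activated SMADs, had the largest rise, from 15.9 to 39.5 and 35.3 TPM in KH (1.26 and 1.10) and from 12.3 to 51.4 and 31.8 TPM in DNMT3ABKO (1.98 and 1.31). The difference between the lines in its 72 h response passed, and this call was kept in all 17 alternative fits. Zeb2, which encodes a SMAD-binding repressor, fell in all 4 responses, by 0.57 in KH and 0.93 in DNMT3ABKO at 144 h, and its 72 h call in DNMT3ABKO was lost in 6 of 17 alternative fits. Ctdspl, the gene of a small phosphatase, fell in KH only as far as calls go (-0.56 and -0.71), and the difference between the lines in this response did not pass.

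Of 10 tested targets beside the members, 6 passed in KH at 72 h (2 higher, 4 lower), against 47.8% of all genes, and 6 at 144 h (2 higher, 4 lower), against 51.3%. In DNMT3ABKO 7 passed at 72 h (3 higher, 4 lower), against 56% of all genes, and 8 at 144 h (2 higher, 6 lower), against 57.6%. Dusp9, a BMP target of ES cells that encodes an ERK phosphatase, rose from 40.4 to 69.4 and 63.6 TPM in KH and from 51.8 to 90.8 and 73.8 TPM in DNMT3ABKO. It thus rose at 72 h where Id1 and Id3 fell. Hey1, Atoh8 and Runx2, which encode transcription factors, fell at 144 h by 0.78, 1.37 and 1.23 in KH and by 1.53, 1.43 and 1.41 in DNMT3ABKO. The difference between the lines in the 144 h response of Hey1 passed, a call lost in 13 of 17 alternative fits. At 144 h Atoh8 averaged only 0.292 TPM in KH and 0.410 TPM in DNMT3ABKO, and Runx2 0.355 and 0.425 TPM. The mean by which Runx2 was admitted to testing (1.36 TPM) rested on its 0 h groups, at 2.19 and 2.78 TPM. In the 144 h libraries the fibroblast and macrophage marker sums had fallen to the levels given above for the receptors (5.48% and 2.2% of 0 h in KH, 5.05% and 6.42% in DNMT3ABKO). Their part in the falls of these genes was not tested. Id4, the remaining Id gene, was low, at 3.26 to 3.69 TPM in KH and 1.47 to 2.22 TPM in DNMT3ABKO, and was lower in DNMT3ABKO at 0 h (-0.47), 72 h (-0.80) and 144 h (-0.79). Its 0 h call was lost in 4 of 17 alternative fits, and the calls at 72 and 144 h in none. Of the E protein genes that ID proteins act on, Tcf3 (E2A) was the most abundant, at 68.7 to 88.6 TPM, and fell in DNMT3ABKO at 72 h (-0.36). Tcf12 rose in DNMT3ABKO at both times (0.49 each, lost in 11 of 17 alternative fits at 72 h and in 5 at 144 h) and Tcf4 passed against 0 h in neither line. None of the 3 passed in KH.

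**Figure D5:**
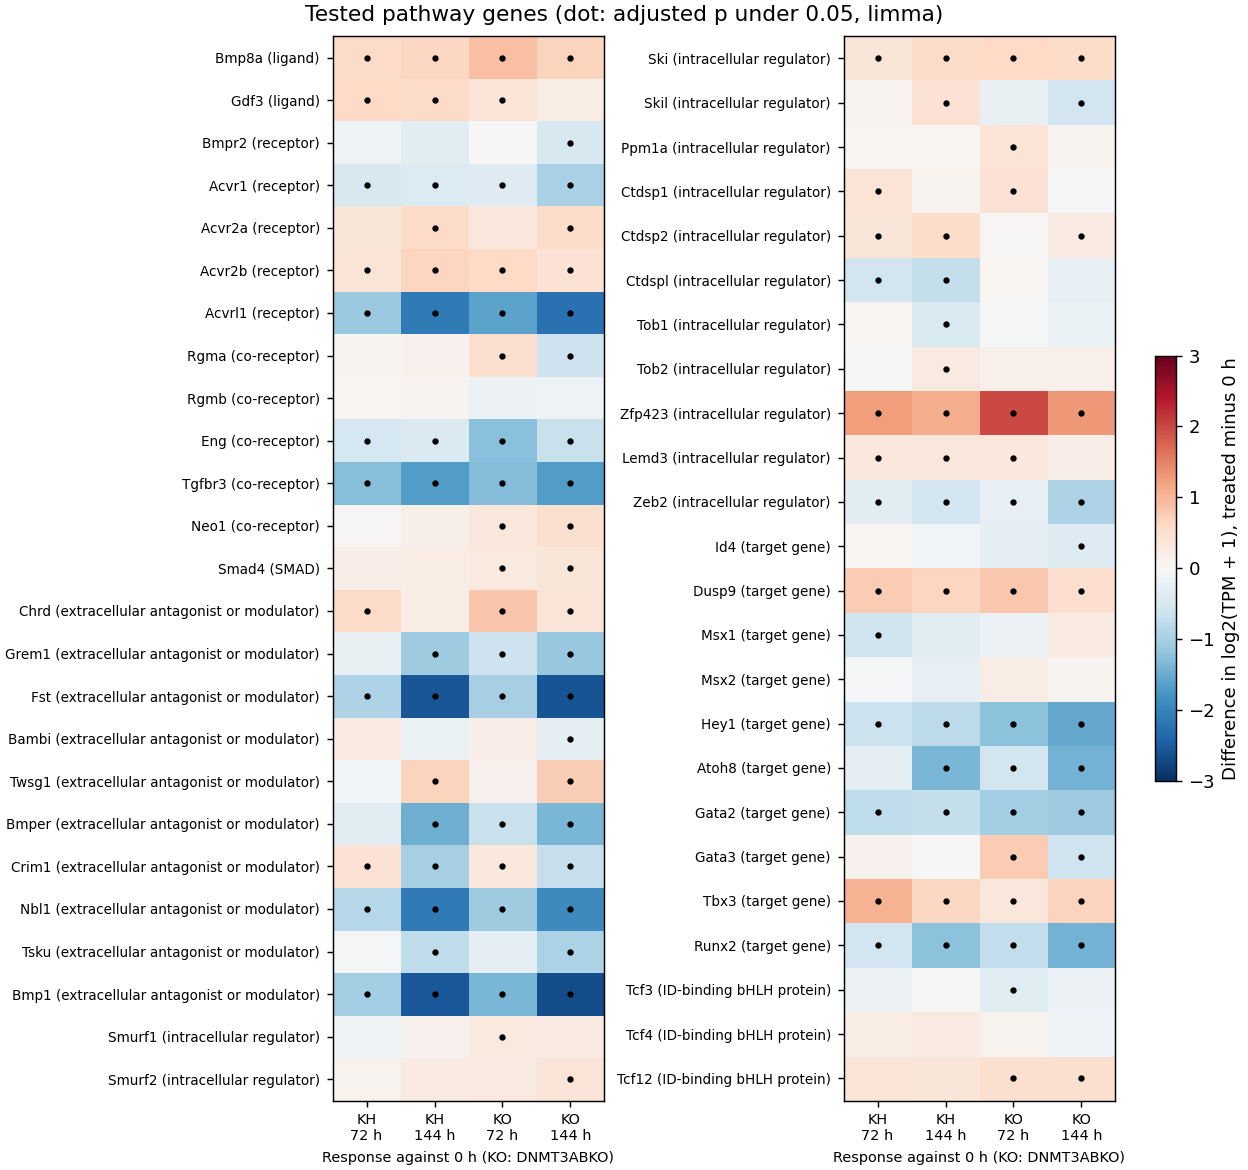
Difference in log2(TPM + 1), treated minus 0 h, for the tested pathway genes beside the members (all but 1 of 50), as colour (red higher, blue lower), in columns for KH and DNMT3ABKO (KO) at 72 and 144 h; a dot marks an adjusted p under 0.05. Fst and Bmp1 are the deepest blue at 144 h, at -2.54 to -2.67, and Zfp423 is the deepest red, up to 1.98.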

How the data were processed

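RNA was spiked with ERCC standards and depleted of ribosomal RNA. The authors trimmed reads with cutadapt (2.4 per the labels), aligned them to mm10 with STAR (2.7.3a per the labels) and estimated genes of a GENCODE annotation with StringTie (2.0 per the labels). The deposited values are TPM per gene and library, with replicates kept apart and no rows for the ERCC standards. TPM sums to the same total in every library, so that sequencing depth is unknown and a gene's value depends on all others. Count models could not be used.

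Here log2(TPM + 1) was fitted with limma 3.58.1 (lmFit and eBayes with trend, R 4.3.3) over all 12 libraries with 6 group terms, for genes of at least 1 TPM on average, and 11 contrasts were called at an adjusted p under 0.05 (Benjamini-Hochberg). The fit was tested on simulated data. The alternatives tried used 0.1 TPM as pseudocount, all genes with any signal (37364), median-ratio rescaling, only the groups in a contrast, a replicate block, a log2 change of at least 1, and leaving out each library. Levels are means ± SD (n = 2 libraries) on the TPM scale. Every member is given. Genes of the other pathway list were named by role (at most 3 called genes with the largest change, and 9 named in any case), and the 3 genes most alike by Pearson's r. Members, lists and motifs were chosen with earlier results of these data known. One gene of the pathway list is counted but not reported here by name.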

Additional observations from a re-analysis of the deposited data

Results flagged for a closer look

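The interaction of line and time singled out 2 results, because the response of a member differed between KH and DNMT3ABKO. The rise of Smad7 at 72 h was smaller in DNMT3ABKO, with a difference in response of -0.44 on the log2 scale (limma, adjusted p = 0.0452). The 144 h fall of Smad6 was larger in DNMT3ABKO, with a difference of -0.57 (limma, adjusted p = 0.0491). Both were near the threshold, and either lost its call without any 1 of 10 of the 12 libraries.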

How the results depend on the processing

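Of 46 member differences that passed, 30 kept their call under all of 5 other settings (pseudocount of 0.1 TPM, no filter, median-ratio rescaling, only the groups in the contrast, replicate block) and without each library in turn, and none of the 46 turned in sign. Of 53 that did not pass, 20 changed sign at least once, the largest at 0.126 on the log2 scale, and 18 passed under some setting or without some library. Without 1 library, Bmpr1a in the KH 72 h response ran from -0.0543 to 0.009875, and the 72 h interaction from -0.0603 to 0.258 for Bmp4 and from -0.016 to 0.219 for Smad1. TPM gives no depth, and with 2 libraries a group small differences cannot be told from replicate spread; the cause of lost calls was not tested.

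With a log2 change of at least 1 required, the members called were 2 of 9 at 72 h and 1 at 144 h in KH, 2 at both times in DNMT3ABKO, 2 from 72 to 144 h in either line, and 0, 0 and 1 between the lines at 0, 72 and 144 h. The interactions then gave 0 at both times. The share of all genes that passed with this requirement was 1.58% to 14.8% over the comparisons. With only the groups in the contrast, 0 members passed between the lines at 0 h and 0 in either interaction. The 72 h interaction gave 0 members with a pseudocount of 0.1 TPM, with no filter and with the replicate block, and the 144 h interaction gave 0 with no filter and with the block and 2 after median-ratio rescaling.

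Leaving out 1 library at a time gave 6 members in the KH 72 h response, 2 to 5 at 144 h and 6 to 7 from 72 to 144 h. In DNMT3ABKO the counts were 6 to 7, 3 to 5 and 6 to 8. Between the lines they were 1 to 4 at 0 h, 2 to 3 at 72 h and 1 to 8 at 144 h, and in the interactions 0 to 3 at 72 h and 0 to 2 at 144 h. The count in the KH 144 h response was 5 without DNMT3ABKO 0 h replicate 1 or replicate 2. At 0 h between the lines it was 1 without KH 0 h replicate 2 and 4 without DNMT3ABKO 0 h replicate 2.

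Replicate numbers are shared between groups. The study states in general that the time points of a biological replicate were handled in parallel, and the labels do not say that these numbers mark such sets. Deviations of like-numbered libraries correlated at only -0.104 to 0.0996, so that no block was used in the values reported. With the replicate block within each line, the count went from 4 to 3 in the DNMT3ABKO 144 h response and from 6 to 4 between the lines at 144 h; other counts of members outside the interactions were as without the block.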
